A study of Mus musculus with 8 samples.

Results

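The S100 genes encode small calcium-binding proteins, and 8 of them were chosen by name: S100a1, S100a4, S100a6, S100a8, S100a9, S100a10, S100a11 and S100a13. All probe sets of the array whose platform annotation gave exactly 1 gene symbol from that list were taken. This found 10 of 34945 single-symbol probe sets, which covered 7 of the 8 genes, out of 18193 genes with such a probe set. S100a11 had only a probe set annotated to several symbols, and no value is given for it. Expression was measured on 8 Affymetrix mouse whole-genome arrays of flow-sorted bone marrow cells. GMP (granulocyte-monocyte progenitors, committed to granulocytes and monocytes) and CMP (common myeloid progenitors, their earlier precursors) each came from G4/G5 TERTER/ER mice and from G0 TERTER/+ mice. G4/G5 TERTER/ER mice are late-generation animals with dysfunctional telomeres, in which both copies of the telomerase reverse transcriptase gene carry a modified allele. G0 TERTER/+ mice were the normal group and carry 1 copy of the same modified allele. All animals were male and mainly of C576BL/6 background, as the labels spell it. Ages, and whether any agent was given, are not given in the sources used here. Each group had 2 arrays, and each array held a pool of 4 age- and sex-matched mice with 5000 to 20000 sorted cells. The spread between replicates is therefore a spread between pools of mice.

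S100 proteins carry EF-hand motifs, helix-loop-helix folds that bind calcium, and most act as dimers that change shape on binding it and then grip a partner protein. S100a8 and S100a9 join into calprotectin, the most abundant protein of the neutrophil cytosol, which is released in inflammation, withholds metal ions from microbes and signals through Toll-like receptor 4 and the receptor Ager. S100a4 binds non-muscle myosin and is linked to cell movement, S100a6 binds the ubiquitin-ligase adaptor Cacybp, and S100a10, which no longer binds calcium, holds annexin A2 at membranes. In bone marrow, S100a8 and S100a9 transcripts are known to build up as granulocytes mature.

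All 8 genes lie on mouse chromosome 3. From one end of the family its coding genes run S100a1, S100a13, S100a14, S100a16, S100a3, S100a2, S100a4, S100a5, S100a6, S100a7a, S100a8, S100a9 and S100a7l2. S100a11 and S100a10 lie next to each other farther along. The promoters of S100a8, S100a9 and S100a6 are shown because these genes had the widest range of signal, and that of S100a13 because its start site faces that of S100a1. The windows run from 250 bases before to 50 after the start site in RefSeq (GRCm38.p6), which has an entry for 7 of the 8 genes, all but S100a10. Capitals in the first 3 mark matches on either strand to 3 motifs of the myeloid lineage and of start sites. C/EBP factors were searched as TTNNGNAA. The factor PU.1, which Spi1 encodes, was searched as GAGGAA. The box near many start sites was searched as TATAAA. Capitals in S100a13 mark the 204 bases that lie in the window of S100a1 too.
S100a8, chr3:90668821-90669120, plus strand: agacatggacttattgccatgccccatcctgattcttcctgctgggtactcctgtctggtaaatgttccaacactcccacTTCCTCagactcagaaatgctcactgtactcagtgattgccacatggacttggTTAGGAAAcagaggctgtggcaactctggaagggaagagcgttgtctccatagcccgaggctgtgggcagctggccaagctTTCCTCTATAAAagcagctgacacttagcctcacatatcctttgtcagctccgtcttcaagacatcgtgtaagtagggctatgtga
S100a9, chr3:90695672-90695971, minus strand: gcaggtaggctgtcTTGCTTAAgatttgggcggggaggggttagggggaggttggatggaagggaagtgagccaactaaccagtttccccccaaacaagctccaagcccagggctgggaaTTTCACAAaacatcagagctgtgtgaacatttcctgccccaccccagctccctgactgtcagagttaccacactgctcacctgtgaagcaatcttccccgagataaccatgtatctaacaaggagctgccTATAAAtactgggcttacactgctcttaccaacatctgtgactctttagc
S100a6, chr3:90612644-90612943, plus strand: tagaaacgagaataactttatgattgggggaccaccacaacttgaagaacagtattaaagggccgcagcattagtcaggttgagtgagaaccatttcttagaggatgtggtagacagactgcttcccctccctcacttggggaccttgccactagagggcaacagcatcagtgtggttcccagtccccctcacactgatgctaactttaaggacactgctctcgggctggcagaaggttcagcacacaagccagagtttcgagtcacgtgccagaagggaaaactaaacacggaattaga
S100a13, chr3:90514185-90514484, plus strand: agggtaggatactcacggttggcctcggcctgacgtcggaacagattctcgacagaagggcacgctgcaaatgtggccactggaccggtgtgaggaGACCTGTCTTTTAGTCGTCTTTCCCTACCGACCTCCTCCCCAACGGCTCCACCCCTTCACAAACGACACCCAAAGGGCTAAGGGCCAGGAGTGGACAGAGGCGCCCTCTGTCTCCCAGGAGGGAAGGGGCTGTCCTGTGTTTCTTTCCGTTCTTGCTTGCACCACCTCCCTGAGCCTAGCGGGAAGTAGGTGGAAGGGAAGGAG

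With the start-site base as position 0, S100a8 held a C/EBP match at -117 to -110, PU.1 matches on the reverse strand at -170 to -165 and at -36 to -31, and a TATA box match at -30 to -25. S100a9 held C/EBP matches on the reverse strand at -236 to -229 and at -130 to -123, and a TATA box match at 0 to 5. In S100a4 a TATA box match lay at -31 to -26 and a reverse-strand PU.1 match at 19 to 24, and in S100a11 a PU.1 match lay at -153 to -148. None of the 3 motifs was found in the windows of S100a6, S100a1 or S100a13. Such matches are common: of 32851 promoter windows, 40.7% held the C/EBP letters, 28.3% the PU.1 letters and 13.6% the TATA box letters. The start sites of S100a1 and S100a13 were 105 bases apart on opposite strands, and those of S100a8 and S100a9 26650 bases apart.

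Values are MAS5 signals, a linear brightness per probe set that the authors scaled to a target of 100 on each array. They are read between arrays for the same probe set and not between probe sets. Where a gene had several probe sets, the one with the highest mean stood for it. The median probe set read between 14.3 and 18.5 on the 8 arrays, and between 31.6% and 35.2% of probe sets reached 50. Of the marker genes of granulocyte-monocyte progenitors, 9 of 20 tested were higher in GMP than in CMP of G0 mice (limma, adjusted p under 0.05) and 0 were lower, and of stem and multipotent cell markers 12 of 22 were lower. Of all 8886 genes tested 20.8% passed in this comparison, 939 higher and 906 lower. A gene was tested if it reached 50 on at least 2 arrays. Among the 12 stem and multipotent markers, Mecom, Esam, Slamf1, Tek and Mllt3 read under 50 on every GMP array. Their direction was thus partly set by this filter. G4/G5 CMP pool 1 stood apart from the other CMP arrays in genes of maturing neutrophils. Summed over 26 such genes other than S100 genes, the signal was 24586 and 27477 in G4/G5 GMP, 5640 and 7127 in G0 GMP, 40023 and 2970 in G4/G5 CMP, and 1168 and 2228 in G0 CMP. Markers of granulocyte-monocyte progenitors summed to 46241 and 42030 in G4/G5 CMP, against 17936 and 29187 in G0 CMP, so they lay higher in both pools. So did markers of monocytes and macrophages, 15 tested genes, at 9913 and 6444 in G4/G5 CMP, against 2674 and 4017 in G0 CMP, and of eosinophils, basophils and mast cells, 11 tested genes, at 12079 and 6418 in G4/G5 CMP, against 4369 and 5796 in G0 CMP. The part of these markers in the S100 values was not tested. The CMP differences of S100a8, S100a9, S100a6 and S100a4 are given with G4/G5 CMP pool 1 and without it.

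S100a8 read 9762 and 10308 in G4/G5 GMP, against 898 and 1753 in G0 GMP. In CMP it read 16783 and 44.3 in the G4/G5 pools, against 179 and 103.2 in the G0 pools. The G4/G5 GMP arrays agreed closely and both lay above both G0 GMP arrays, whereas the G4/G5 CMP pools lay on either side of the G0 CMP pools. Its partner in calprotectin put the groups in the same order and the arrays too, except that the G0 CMP pools changed places.

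S100a9 read 8342 and 8776 in G4/G5 GMP, against 96.1 and 618.2 in G0 GMP. In CMP it read 15175 and 24.6 in the G4/G5 pools, against 37.9 and 61.1 in the G0 pools. The means were 8559 ± 307.1 in G4/G5 GMP and 357.2 ± 369.2 in G0 GMP (SD, n = 2 each). Pool by pool, G4/G5 GMP was 86.8-fold and 14.2-fold above G0 GMP for S100a9, and 10.9-fold and 5.88-fold for S100a8. G4/G5 CMP was 401-fold above G0 CMP in pool 1 and 0.402 times its level in pool 2 for S100a9, and 93.7-fold and 0.429 times for S100a8. The direction in CMP was thus opposite in the 2 pools.

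S100a6, which is found in many growing cell types, read 391.7 and 395.1 in G4/G5 GMP, against 29.8 and 71.1 in G0 GMP. In CMP it read 1318 and 64.5 in the G4/G5 pools, against 43.5 and 49.7 in the G0 pools. Unlike S100a8 and S100a9, it was higher in G4/G5 than in G0 in all pools of both cell types, by 13.2-fold and 5.56-fold in GMP and by 30.3-fold and 1.30-fold in CMP. The values of G0 cells lay close to the filter of 50 that set which genes were tested, which asked for 2 arrays at that signal. Of the G0 arrays 1 reached it and of the G4/G5 arrays 4 did, so S100a6 was tested only through its G4/G5 signal, and its direction was partly set by the filter. The other 6 members with a value had at least 2 G0 arrays at 50.

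**Figure D1:**
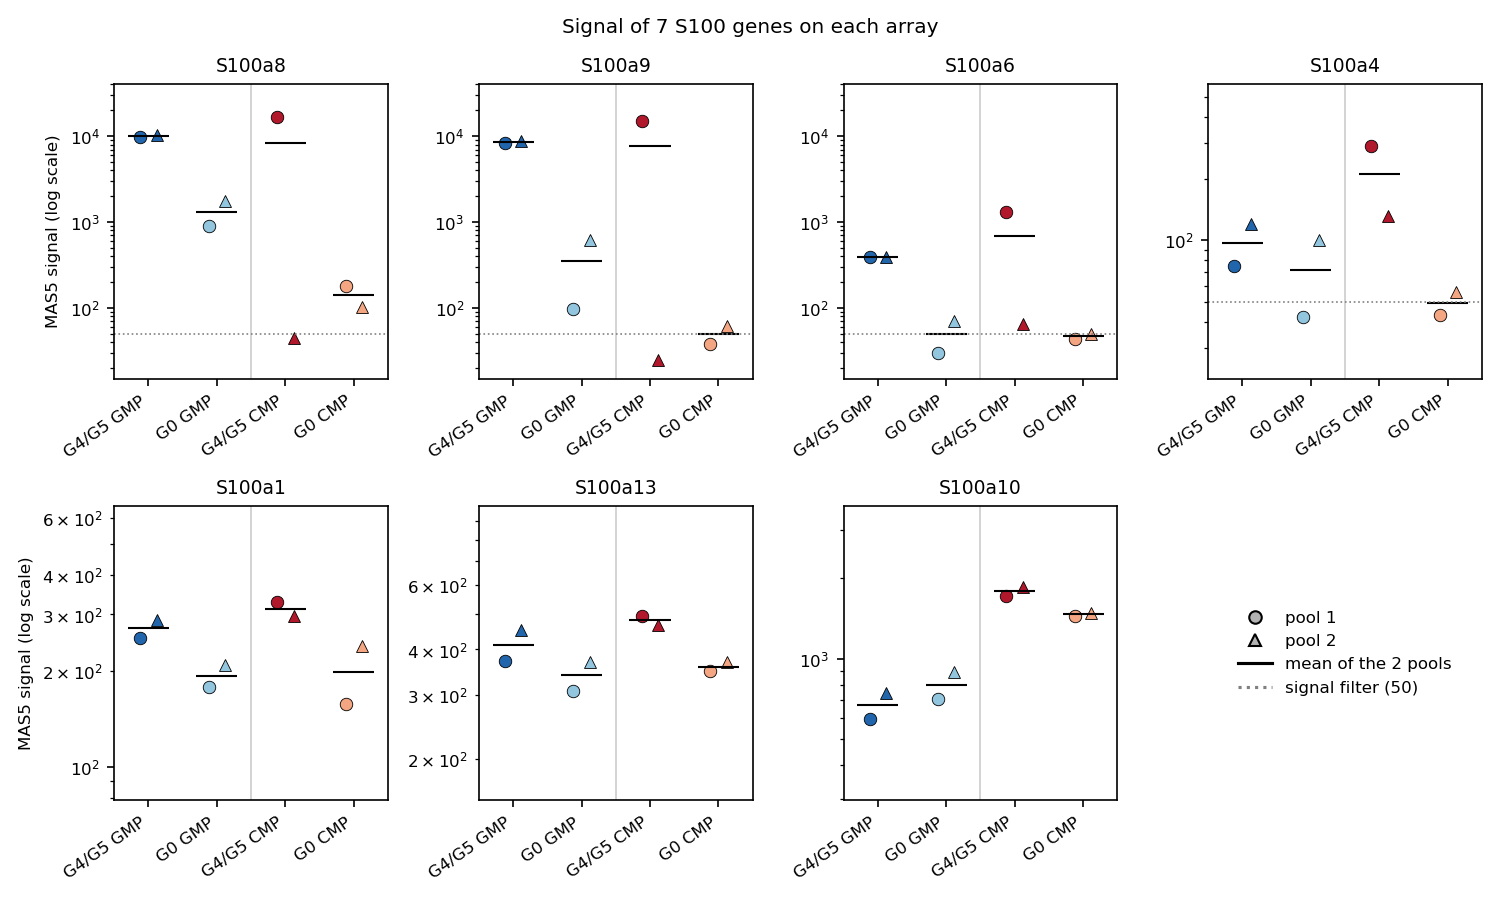
MAS5 signal (log scale) of the probe set that stands for each of 7 S100 genes on each of the 8 arrays, by group; circles are pool 1, triangles pool 2, bars the mean of both, and the dotted line the signal filter of 50. The G4/G5 CMP pools of S100a8 lie at 16783 and 44.3, while the G4/G5 GMP pools lie at 9762 and 10308, both above the G0 GMP pools.

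The pools of G4/G5 CMP differed more in S100a8 and S100a9 than in nearly all other genes. The signal of pool 1 over pool 2 was 618-fold for S100a9, 379-fold for S100a8 and 20.4-fold for S100a6, which ranked 3, 4 and 22 among 8886 genes by the size of the log2 gap. It was 2.19-fold for S100a4, 1.11-fold for S100a1, 1.06-fold for S100a13 and 0.924 times for S100a10. The median gene differed between these pools by 0.27 on the log2 scale, which includes a pseudocount of 10 here and throughout. The G0 GMP pools also differed: pool 1 had 0.155 times the S100a9 signal of pool 2, 0.419 times that of S100a6, 0.420 times that of S100a4 and 0.512 times that of S100a8, at ranks 7, 43, 40 and 54 by the size of the log2 gap. The G4/G5 GMP pools were close in S100a8, S100a9 and S100a6, at 0.947, 0.951 and 0.991 times. The wide gaps of these 3 genes thus lay in G4/G5 CMP and G0 GMP, and in G0 GMP S100a4 shared them.

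Ngp, Camp and Lcn2, each among the 3 genes best correlated with S100a8 or S100a9, moved with them from array to array. Lcn2 hardly differed between the G0 GMP pools, and some other maturing neutrophil genes, such as Padi4, followed less closely. Ngp, a neutrophil granule protein, read 4257 and 4743 in G4/G5 GMP, 22.1 and 258.2 in G0 GMP, 8262 and 20.5 in G4/G5 CMP, and 12.4 and 29.4 in G0 CMP. Camp, an antimicrobial peptide, read 2229 and 3107 in G4/G5 GMP, 10.4 and 120 in G0 GMP, 5902 and 1.28 in G4/G5 CMP, and 6.77 and 4.09 in G0 CMP. Lcn2, an iron-scavenging granule protein, read 2499 and 2602 in G4/G5 GMP, 352.4 and 387.9 in G0 GMP, 4147 and 11.8 in G4/G5 CMP, and 15.1 and 6.42 in G0 CMP. All 26 neutrophil genes had a higher mean in G4/G5 than in G0 in both cell types, with a median log2 difference of 1.93 in GMP and 1.86 in CMP, against 0.01 and 0.04 over all genes tested. Without G4/G5 CMP pool 1 the median in CMP was 0.33, with 19 of 26 above 0, against 0.07 over all genes. Of the 26 genes 16 reached the filter of 50 on fewer than 2 G0 arrays and were tested only through their G4/G5 signal, so these counts and medians were partly fixed by the filter. On all 8 arrays 0 of the 26 passed in either (limma, 13 in GMP and 11 in CMP at an unadjusted p under 0.05). Fcgr3, part of the Fc receptor antigen that is widely used to part GMP from CMP in sorting, read 617.5 and 72.2 in the G4/G5 CMP pools, against 38.7 and 83.9 in the G0 CMP pools. In these bulk samples more cells of a type and more RNA per cell cannot be told apart, and the part of these genes in the S100 values was not tested.

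**Figure D2:**
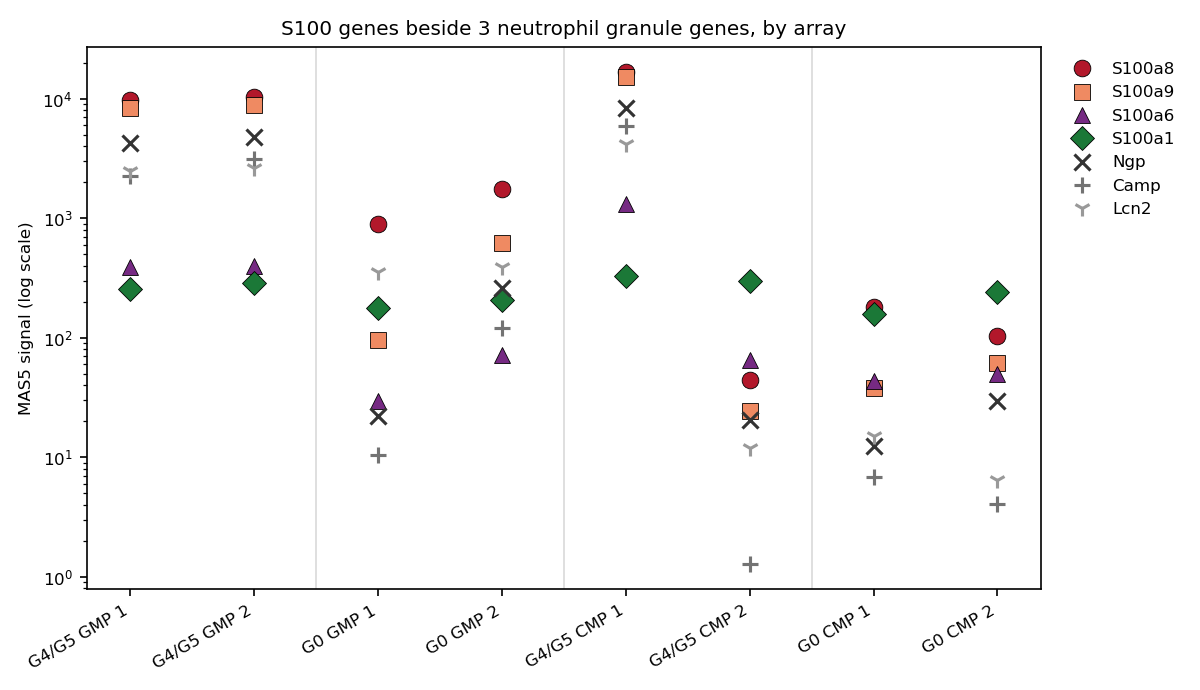
MAS5 signal (log scale) of S100a8, S100a9, S100a6 and S100a1 (filled symbols) and of the neutrophil granule genes Ngp, Camp and Lcn2 (line symbols) on each of the 8 arrays, in columns by group and pool. On G4/G5 CMP pool 1 and both G4/G5 GMP arrays the granule genes read between 2229 and 8262, where S100a8 and S100a9 are high too, while S100a1 reads between 157.2 and 327.8 on all arrays.

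The genotypes were compared with limma over all 8 arrays, with 1 shared estimate of spread per gene and p-values adjusted over 8886 genes. By this test 0 of the 7 S100 genes passed an adjusted p of 0.05 in GMP, where 0.0% of all genes passed, and 0 of 7 in CMP, where 0.0113% did. At an unadjusted p under 0.05 stood 2 of 7 members and 699 of all genes in GMP, and 4 of 7 members and 1195 of all genes in CMP. Averaged over both cell types 0 of 7 passed, against 0.0338% of all genes, and 0 of 7 differed in their response between GMP and CMP, against 0.0%. For these, 5 and 1 of 7 members and 1584 and 354 of all genes had an unadjusted p under 0.05. The average over both cell types was 4.34 ± 1.58 (SE) for S100a9, 2.85 ± 1.44 for S100a8 and 2.65 ± 0.74 for S100a6, and without G4/G5 CMP pool 1 it was 2.15 ± 0.53, 0.78 ± 0.25 and 1.61 ± 0.24. The G4/G5 minus G0 difference in GMP was 5.05 ± 2.23 (SE) for S100a9 (adjusted p = 0.633), 2.99 ± 2.04 for S100a8 (adjusted p = 0.703) and 2.83 ± 1.05 for S100a6 (adjusted p = 0.601). In CMP it was 3.63 ± 2.23 for S100a9 (adjusted p = 0.505), 2.71 ± 2.04 for S100a8 (adjusted p = 0.594) and 2.48 ± 1.05 for S100a6 (adjusted p = 0.366). By size these were among the largest differences of all genes, at ranks 5, 16 and 18 in GMP and 6, 19 and 22 in CMP. Their errors were wide, and the G4/G5 CMP pools enter the shared spread.

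On the 4 GMP arrays alone, the estimates were the same and the errors far smaller. This fit has fewer residual degrees of freedom than that on 8 arrays. Its errors are moderated by limma with the spread of all genes, so they are not the measured spread between the pools of a gene. For S100a9 the G0 GMP pools differed by -2.57 (log2, pool 1 minus pool 2), a gap that its moderated error understates. S100a9 rose by 5.05 ± 0.61 (limma, adjusted p = 0.0026), S100a8 by 2.99 ± 0.24 (adjusted p = 0.000334) and S100a6 by 2.83 ± 0.27 (adjusted p = 0.000981). These 3 of 7 members passed, against 4.03% of all genes. S100a6 was tested only through its G4/G5 signal, so its rise was partly set by the filter. Of the 6 members that reached 50 on at least 2 G0 arrays 2 rose, S100a8 and S100a9, against 195 of 8388 such genes in all. With the pool number as a block on these 4 arrays the same 3 passed, at adjusted p = 0.0047 for S100a9, 0.00075 for S100a8 and 0.00256 for S100a6 (limma). With all arrays but G4/G5 CMP pool 1 the same 3 passed in GMP, with adjusted p = 0.0112 for S100a6, 0.0112 for S100a8 and 0.0235 for S100a9, against 0.473% of all genes. Of the 26 neutrophil genes, 21 rose on the 4 GMP arrays and 0 fell, but 15 of the 21 were among the genes tested only through their G4/G5 signal. Of the 10 that reached 50 on at least 2 G0 arrays 6 rose, against 195 of the 8388 such genes in all. Of the 20 granulocyte-monocyte progenitor markers 2 rose, Fcnb and Gfi1. Of the 15 monocyte and macrophage markers 3 rose (Cd68, F13a1 and Fn1) and 1 fell (Cx3cr1). Fcnb and Fn1 too were tested only through their G4/G5 signal, so their rise was partly fixed by the filter. Of 9 erythroid markers 2 fell, Car2 and Klf1.

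In CMP the result turned on which pool was used, and S100a6 was again tested only through its G4/G5 signal. Without G4/G5 CMP pool 2, so that pool 1 stood alone and was taken to vary like the other groups, S100a9 differed by 8.02 (adjusted p = 0.00219), S100a8 by 6.84 (adjusted p = 0.000135), S100a6 by 4.56 (adjusted p = 0.000676) and S100a4 by 2.33 (adjusted p = 0.0275). These 4 of 7 members passed, against 4.79% of all genes. Without G4/G5 CMP pool 1 the differences were -0.76 ± 0.82 (SE) for S100a9, -1.43 ± 0.39 for S100a8, 0.40 ± 0.37 for S100a6 and 1.26 ± 0.44 for S100a4, and 0 of 7 members passed (limma, 909 genes at an unadjusted p under 0.05), against 0.0338% of all genes. On the 4 CMP arrays alone 0 of 7 passed, against 0.0% of all genes (limma, 460 at an unadjusted p under 0.05).

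**Figure D3:**
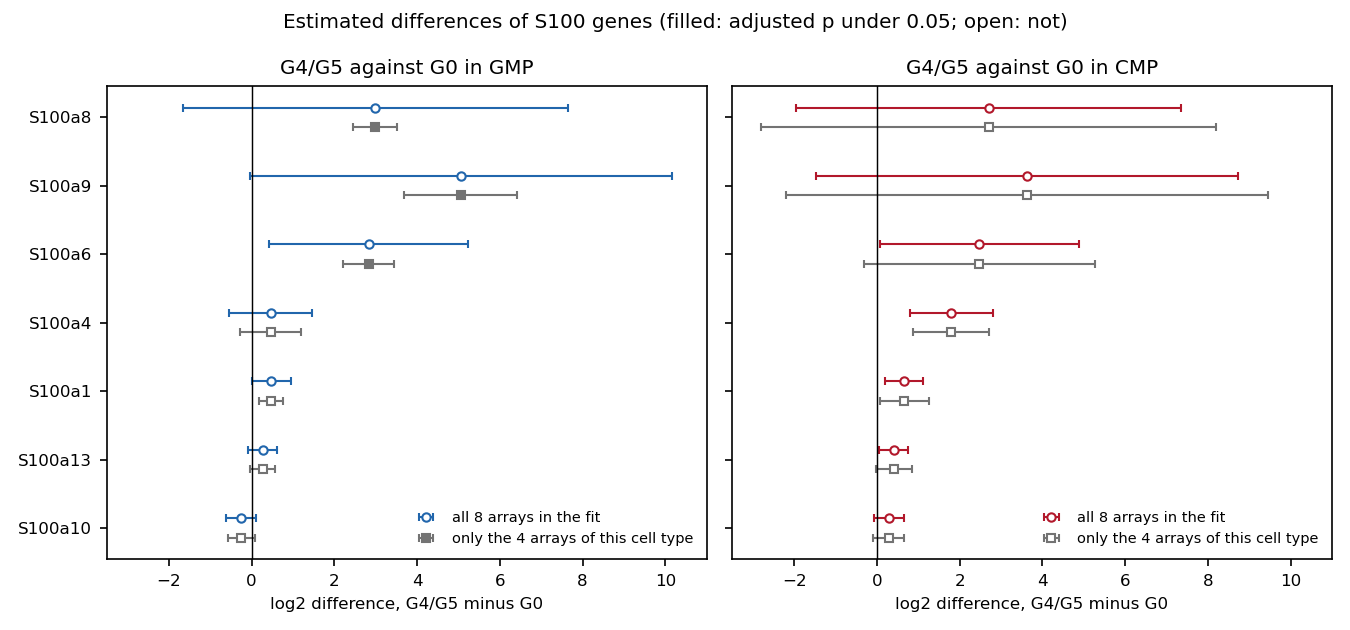
Log2 difference, G4/G5 minus G0, of 7 S100 genes in GMP (left) and CMP (right), with 95% confidence intervals, from the fit over all 8 arrays (circles) and from the 4 arrays of that cell type (squares); filled symbols have an adjusted p under 0.05. The estimates coincide, and for S100a8, S100a9 and S100a6 in GMP the interval narrows when the CMP arrays are left out.

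S100a4, known for its part in cell motility, read 74.7 and 120 in G4/G5 GMP, against 42.2 and 100.7 in G0 GMP. In CMP it read 288.3 and 131.7 in the G4/G5 pools, against 43.2 and 56.1 in the G0 pools. The groups overlapped in GMP and not in CMP, where G4/G5 was 6.67-fold above G0 in pool 1 and 2.35-fold in pool 2. The difference in CMP was 1.79 ± 0.44 with a 95% interval of 0.79 to 2.79 (unadjusted p = 0.00312, limma, adjusted p = 0.247), rank 46 of all genes. In GMP it was 0.46 ± 0.44 (adjusted p = 0.789). The responses of GMP and CMP differed by -1.33 ± 0.62, which did not pass (adjusted p = 0.994). Its low signal limits it: 6 of 8 arrays reached 50.

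S100a1, best known from heart muscle, and S100a13, which takes part in the release of growth factors that lack a secretion signal, had small differences in the same direction in every pool. S100a1 read 253.2 and 289.1 in G4/G5 GMP, against 177.4 and 207.7 in G0 GMP. In CMP it read 327.8 and 296.6 in the G4/G5 pools, against 157.2 and 239.1 in the G0 pools. Both G4/G5 arrays lay above both G0 arrays in each cell type, by 1.43-fold and 1.39-fold pool by pool in GMP and by 2.09-fold and 1.24-fold in CMP. A further probe set of S100a1 gave the same order, at 114.1 and 124.3 in G4/G5 GMP, 72.0 and 94.6 in G0 GMP, 132 and 147.4 in G4/G5 CMP, and 79.3 and 98.5 in G0 CMP. Its difference was 0.48 ± 0.19 in GMP and 0.60 ± 0.19 in CMP, beside 0.47 ± 0.20 and 0.66 ± 0.20 for the brighter probe set (adjusted p = 0.627 in GMP and 0.307 in CMP). The size in CMP depended on the G0 CMP pools: it was 0.369 without pool 1 and 0.945 without pool 2 of that group.

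S100a13 read 372.1 and 451.5 in G4/G5 GMP, against 308.7 and 370.1 in G0 GMP. In CMP it read 494.8 and 466 in the G4/G5 pools, against 348.3 and 369.6 in the G0 pools. The groups did not overlap in either cell type, but in GMP the lower G4/G5 pool lay just above the higher G0 pool. Pool by pool G4/G5 was 1.21-fold and 1.22-fold above G0 in GMP and 1.42-fold and 1.26-fold in CMP. Averaged over both cell types the difference was 0.34 ± 0.11 for S100a13 (adjusted p = 0.206) and 0.57 ± 0.14 for S100a1 (adjusted p = 0.187), and neither passed.

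Counting members whose groups did not overlap, 5 of 7 were higher on both G4/G5 arrays in GMP (S100a1, S100a6, S100a8, S100a9 and S100a13), where 28.8% of all genes were. In CMP 5 of 7 were higher (S100a1, S100a4, S100a6, S100a10 and S100a13), where 21.7% of all genes were. The 3 members that were higher in both were S100a1, S100a6 and S100a13, against 10.3% of all genes. The median difference of the 7 members was 0.47 in GMP and 1.79 in CMP, against 0.01 and 0.04 over all genes, and without G4/G5 CMP pool 1 it was 0.37 in CMP, against 0.07 over all genes. Since S100a6 entered through its G4/G5 signal, these counts and medians only describe the members tested.

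S100a10 was the only member that passed between the cell types on all 8 arrays, and it did so in both genotypes. It read 593.3 and 747.2 in G4/G5 GMP, 706.8 and 892.3 in G0 GMP, 1709 and 1850 in G4/G5 CMP, and 1440 and 1482 in G0 CMP. All 4 GMP arrays lay below all 4 CMP arrays. S100a10 was lower in GMP than in CMP by -1.40 ± 0.16 in G4/G5 mice (limma, adjusted p = 0.0028) and by -0.87 ± 0.16 in G0 mice (adjusted p = 0.01). In each comparison it was 1 of 7 members, against 10.5% of all genes in G4/G5 mice and 20.8% in G0 mice, so a passing gene is not rare here. Without G0 GMP pool 1 the difference in G0 mice was -0.71 ± 0.19 and did not pass (adjusted p = 0.105).

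The other probe sets of S100a10 differed in how well they could be read. One read 694 and 780.2 in G4/G5 GMP, 744.3 and 867.1 in G0 GMP, 1637 and 1604 in G4/G5 CMP, and 1338 and 1391 in G0 CMP, and was lower in GMP by -1.13 ± 0.13 in G4/G5 mice (adjusted p = 0.00307) and -0.76 ± 0.13 in G0 mice (adjusted p = 0.0085). The last was dim, reaching 50 on 1 array only, with 9.83 and 7.92 in G4/G5 GMP, 7.46 and 8.88 in G0 GMP, 20.5 and 28.9 in G4/G5 CMP, and 30.2 and 116 in G0 CMP. Its GMP arrays too lay below its CMP arrays. Between genotypes, pool by pool, the 2 bright probe sets lay higher in G4/G5 than in G0 in both CMP pools and lower in both GMP pools. As groups, G4/G5 and G0 overlapped in GMP for both probe sets. For the brightest, G4/G5 was 0.839 and 0.837 times G0 in GMP and 1.19-fold and 1.25-fold in CMP, differences of -0.25 ± 0.16 (adjusted p = 0.688) and 0.28 ± 0.16 (adjusted p = 0.472).

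Anxa2, the annexin that S100a10 binds, read 883.4 and 939.9 in G4/G5 GMP, 574.9 and 672 in G0 GMP, 1038 and 549.1 in G4/G5 CMP, and 298.3 and 403.5 in G0 CMP. Its arrays did not follow those of S100a10: in G0 mice Anxa2 lay higher in GMP than in CMP (0.82 ± 0.27, adjusted p = 0.0655) and S100a10 lower. Over the G4/G5 minus G0 comparison Anxa2 differed by 0.54 ± 0.27 in GMP (adjusted p = 0.638) and 1.10 ± 0.27 in CMP (adjusted p = 0.25), and on the 4 GMP arrays alone it rose, with a limma adjusted p of 0.0284.

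**Figure D4:**
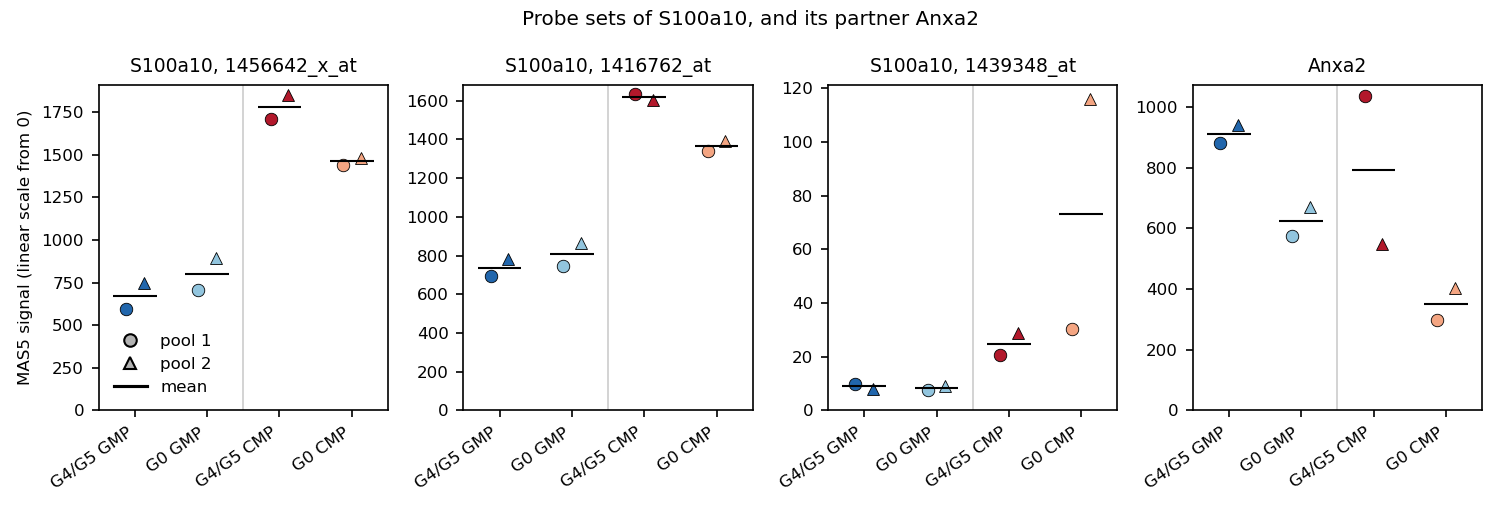
MAS5 signal (linear scale from 0) of the 3 probe sets of S100a10 and of Anxa2 by group; circles are pool 1, triangles pool 2 and bars the mean of both. For every S100a10 probe set the GMP arrays lie below the CMP arrays, while Anxa2 in G0 GMP, at 574.9 and 672, lies above G0 CMP, at 298.3 and 403.5.

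For the other 6 members the comparison of GMP with CMP did not pass in either genotype on all 8 arrays. The GMP minus CMP difference of S100a8 was 3.39 ± 2.04 in G4/G5 mice (limma, adjusted p = 0.298) and 3.11 ± 2.04 in G0 mice (adjusted p = 0.301). On the 4 G0 arrays alone it was higher by 3.11 ± 0.35 (adjusted p = 0.00478), and with S100a10 it made 2 of 7 members that passed, against 18.3% of all genes. The difference of S100a9 there was 2.15 ± 0.74 (adjusted p = 0.0861). In G4/G5 mice without CMP pool 1, so that CMP pool 2 stood alone and was taken to vary like the other groups, S100a9 was higher in GMP by 7.95 (adjusted p = 0.00137), S100a8 by 7.53 (adjusted p = 8.14e-05) and S100a6 by 2.44 (adjusted p = 0.00609), which with S100a10 made 4 of 7 members, against 16.2% of all genes. Without CMP pool 2 in its place, when pool 1 stood alone, all 3 turned: S100a9 differed by -0.83, S100a8 by -0.74 and S100a6 by -1.72, of which S100a6 passed (adjusted p = 0.0331). The difference of S100a6 in G0 mice was 0.01, with a 95% interval of -0.86 to 0.88 on the 4 G0 arrays alone and of -2.40 to 2.41 on all 8 arrays. S100a1 and S100a13 differed between GMP and CMP of G0 mice by -0.01 ± 0.20 and -0.08 ± 0.15.

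Further S100 genes gave little signal. Of 9 others listed, 6 had a single-symbol probe set and 0 were tested, the highest reading of any being 38.6 for S100a16, against 19.4 for S100a5, 12.03 for S100b, 7.36 for S100a14, 4.71 for S100a3 and 1.30 for S100g. Among receptors and signal adaptors of S100 proteins, 8 of 12 were tested and 0 passed between genotypes (limma, 0 in GMP and 1 in CMP at an unadjusted p under 0.05), with a median difference of 0.01 in GMP and 0.23 in CMP. Tlr4, the receptor of calprotectin, read 75.1 and 74.8 in G4/G5 GMP, 66.9 and 61.3 in G0 GMP, 24.8 and 11.96 in G4/G5 CMP, and 21.0 and 28.9 in G0 CMP. It was higher in GMP than in CMP by 1.62 ± 0.29 in G4/G5 mice (adjusted p = 0.0152) and 1.09 ± 0.29 in G0 mice (adjusted p = 0.0338). Every CMP array of Tlr4 read under the signal filter. Tlr4 was thus tested only through its GMP signal, and its direction was partly set by the filter. Its co-receptor Cd14 and its adaptor Myd88 were higher in GMP of G0 mice, by 2.46 ± 0.51 (adjusted p = 0.0147) and 0.71 ± 0.18 (adjusted p = 0.0303), and did not pass in G4/G5 mice. Among the CMP arrays only G4/G5 pool 2 reached the filter for Cd14, at 98.6. Cd14 too was thus tested only through its GMP signal, and its direction was partly set by the filter. The brightest of the list, the kinase Irak1 and the adhesion protein Nptn, did not pass in any comparison. Between cell types 10.5% of all genes passed in G4/G5 mice and 20.8% in G0 mice, shares that hold for the lists below too. Ager read at most 26.4 and the scavenger receptor Cd36 at most 4.75, both under the filter.

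Of 17 intracellular partners of S100 proteins 10 were tested, and 0 passed between genotypes on all 8 arrays (limma, 1 in GMP and 1 in CMP at an unadjusted p under 0.05). On the 4 GMP arrays alone, where 4.03% of all genes passed, 2 of the 10 rose, Anxa2 and Anxa1, and 1 fell, Cacybp, the partner of S100a6. Anxa1, the annexin known as a partner of S100a11, read 4071 and 4029 in G4/G5 GMP, 2459 and 2637 in G0 GMP, 4299 and 890.6 in G4/G5 CMP, and 749 and 925.1 in G0 CMP, and on the 4 GMP arrays its limma adjusted p was 0.00245. Cacybp read 1476 and 1445 in G4/G5 GMP, 2242 and 1919 in G0 GMP, 996.8 and 1232 in G4/G5 CMP, and 1617 and 1168 in G0 CMP, with an adjusted p of 0.0253 on the 4 GMP arrays. S100a6 and its partner thus lay on opposite sides of G0 in GMP. Myh9, the myosin chain that S100a4 binds, read 1759 and 1982 in G4/G5 GMP, 1817 and 1753 in G0 GMP, 1743 and 2524 in G4/G5 CMP, and 2035 and 2506 in G0 CMP, and its groups overlapped in both cell types. Between cell types, the stress-responsive gene Ndrg1 was lower in GMP by -1.52 ± 0.17 in G4/G5 mice (adjusted p = 0.00241) and -1.66 ± 0.17 in G0 mice (adjusted p = 0.00187), and in G0 mice Cacybp (0.59 ± 0.18, adjusted p = 0.0491) and the ubiquitin ligase Stub1 (0.56 ± 0.17, adjusted p = 0.0455) were higher.

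Related calcium-binding families showed no genotype call on all 8 arrays either. Of 7 other annexins 5 were tested (limma, 1 in GMP and 4 in CMP at an unadjusted p under 0.05), and between cell types Anxa3 was higher in GMP, by 1.69 ± 0.29 in G4/G5 mice (adjusted p = 0.0125) and 2.78 ± 0.29 in G0 mice (adjusted p = 0.00187), while Anxa4 was lower, by -1.16 ± 0.15 in G4/G5 mice (adjusted p = 0.00415) and -1.40 ± 0.15 in G0 mice (adjusted p = 0.00189). Of 32 other EF-hand proteins 25 were tested (4 in GMP and 6 in CMP at an unadjusted p under 0.05), with a median difference between genotypes of 0.02 in GMP and 0.19 in CMP. Without G4/G5 CMP pool 1 the median in CMP was -0.016, with 12 of 25 above 0. In G4/G5 mice, where 10.5% of all genes passed, Nucb2 was higher in GMP than in CMP and Itsn1 lower. In G0 mice, where 20.8% of all genes passed, Nucb2, Cib1 and Calu were higher and Capn2 and Itsn1 lower. Among the CMP arrays only G4/G5 pool 1 reached the signal filter for Nucb2, at 107.3. Among the GMP arrays only G0 pool 2 reached it for Itsn1, at 52.9. Nucb2 and Itsn1 were thus tested only through the cell type where each was higher. Their direction was partly set by the filter. On the 4 GMP arrays alone 1 of the 25 EF-hand genes rose between genotypes, Nucb2, at 291.8 and 268.3 in G4/G5 GMP and 174.8 and 189.2 in G0 GMP (limma, adjusted p = 0.0284). Of all genes 4.03% passed there, so this count is near the share of all genes.

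Transcription factors of the myeloid lineage, among them those whose motifs were searched above, were measured too. Of 12 listed 11 were tested, and 0 passed between genotypes on all 8 arrays (limma, 0 in GMP and 3 in CMP at an unadjusted p under 0.05), with a median difference of 0.01 in GMP and 0.54 in CMP. Cebpb was higher in GMP than in CMP by 1.26 ± 0.25 in G4/G5 mice (adjusted p = 0.0208) and by 2.08 ± 0.25 in G0 mice (adjusted p = 0.00302), and so was the repressor Gfi1, by 1.94 ± 0.25 in G4/G5 mice (adjusted p = 0.00423) and 2.03 ± 0.25 in G0 mice (adjusted p = 0.00321). Cebpd was higher in GMP of G0 mice by 2.01 ± 0.34 (adjusted p = 0.00853), and Runx1 was lower in GMP of both. Spi1, which encodes PU.1, read 128.2 and 127.9 in G4/G5 GMP, 123.9 and 160.3 in G0 GMP, 101 and 183.1 in G4/G5 CMP, and 66.6 and 137.4 in G0 CMP, with overlapping groups in each comparison.

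Across the 8 arrays the members fell into patterns, described here by Pearson's r of log2 values over arrays that share groups and pools and include G4/G5 CMP pool 1, with no test. S100a8 and S100a9 had r = 0.965, S100a6 had r = 0.923 with S100a9 and 0.826 with S100a8, and S100a13 had r = 0.913 with S100a4 and 0.898 with S100a1. S100a10 stood apart, with r = -0.537 with S100a8 and between -0.409 and 0.471 with the other members. The 3 genes most like S100a9 were the granule genes Camp (r = 0.995) and Ngp (0.993) and the mitochondrial protein Nlrx1 (0.993), and those most like S100a8 were the lectin receptor Clec4a2 (0.994), the peroxisome factor Pex2 (0.988) and Lcn2 (0.985). Most like S100a6 were Syne1 (0.992), Cmc1 (0.989) and the helix-loop-helix inhibitor Id2 (0.987), and most like S100a4 Eif3h (0.971), Rnf34 (0.964) and Oxld1 (0.953). S100a1 was most like the leukocyte surface protein Cd52 (0.981), Mical1 (0.976) and Gabarap (0.975), and S100a13 most like the protease Ctss (0.952), Ggh (0.951) and Aldh3a2 (0.947). S100a10 was most like Madd (0.988), the mucin Muc13 (0.986) and Ssbp2 (0.985). Every member thus had 3 genes at r = 0.947 or above, each the best of 8886 genes over 8 arrays.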

How the data were processed

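The deposited values were microarray intensities: per the series text and the submitters' processing notes, the authors made MAS5 probe-set signals and scaled each array to a target of 100. Neither background settings nor detection calls are stated in these sources. Of 45101 probe sets 34945 had 1 gene symbol in the platform annotation, 932 several and 9160 none, and 64 were controls. The log2 of signal + 10 was tested with limma 3.58.1 in R 4.3.3, with 1 mean per group over 8 arrays, 4 residual degrees of freedom, an intensity trend and Benjamini-Hochberg adjustment (threshold 0.05) over 8886 genes that reached 50 on at least 2 arrays. A log2 difference on this scale understates changes of dim genes. Every adjusted p is from limma. The precision is limited by the 2 arrays per group and by which arrays share the estimate of spread, and no counts lie behind the signals.

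The members and lists were chosen with earlier results of these data known. Other genes were named by rule: the 3 best correlated with each member, and list genes that passed (up to 6 a list) or were the 2 brightest. Cell marker genes, annexins, EF-hand proteins and transcription factors were cut back to counts and a few examples. Same-numbered pools within a cell type are paired by the series text. Their deviations from the group means correlated at 0.139 in GMP and 0.246 in CMP, and the pool as a block changed no S100 call, on all 8 arrays or, between genotypes, on the 4 arrays of a cell type (an alternative chosen after seeing the data). No source used here says if same-numbered GMP and CMP pools share mice. The 21 alternatives covered pseudocount, filter, scaling, choice of probe set, trend, block, arrays in the fit and leaving out each array. The code was tested on simulated data. Promoter windows are from RefSeq (GRCm38.p6), and the array files name no genome build.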

Additional observations from a re-analysis of the deposited data

Results flagged for a closer look

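S100a10 drew attention because both G4/G5 pools lay above their G0 pools in CMP and both lay below them in GMP. Pools were compared by number here. As groups the GMP arrays overlapped, with G4/G5 pool 2 at 747.2 above G0 pool 1 at 706.8. The G4/G5 minus G0 difference of S100a10, GMP minus CMP, was -0.53 ± 0.22 (SE), from -0.25 in GMP and 0.28 in CMP. The test of this difference gave an unadjusted p of 0.0434 and did not pass over 8886 genes (limma, adjusted p = 0.994). A further bright probe set of S100a10 gave -0.37 ± 0.18. What lies behind the opposite directions was not tested.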

How the results depend on the processing

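Of 126 counts of S100 genes that passed, 112 were the same as on all 8 arrays. The others came from leaving out arrays: on the arrays compared alone, 3 passed between genotypes in GMP and 2 between cell types in G0 mice, in place of 0 and 1. Leaving out 1 array at a time, the number passing ran from 0 to 3 in GMP, 0 to 4 in CMP, 0 to 4 for the average of both, 0 to 1 for the difference in response, and, for GMP against CMP, 1 to 4 in G4/G5 mice and 0 to 3 in G0 mice. The 1 call for the average without G0 CMP pool 2 was S100a1 (adjusted p = 0.0383). The 0 in G0 mice came without G0 GMP pool 1 (1903 genes at an unadjusted p under 0.05). All other changes of count came from leaving out a G4/G5 CMP pool. The replicate block, by pool number within cell type or shared, gave 0 S100 genes between genotypes on all 8 arrays and S100a10 alone between cell types. On the 4 arrays of a cell type the block, chosen after seeing the data, gave 3 in GMP (S100a6, S100a8 and S100a9) and 0 in CMP (730 genes at an unadjusted p under 0.05). Over all genes it called 2 or 3 in CMP, in place of 1. Filters, pseudocounts, scaling, probe-set choice and the trend changed no count of S100 genes. The only probe set of S100a8 has a name that ends in _s_at. The alternative that left out probe sets named _x_at or _s_at therefore did not test S100a8.

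Of 876 single differences 819 kept direction and call, 29 passed where they had not, 1 was lost and 27 turned sign. Leaving out 1 array at a time, the G4/G5 minus G0 difference ran from -0.077 to 1.007 for S100a4 in GMP, from -1.43 to 6.84 for S100a8 and -0.76 to 8.02 for S100a9 in CMP, and from -0.068 to 0.098 for S100a10 averaged over both. The difference in response ran from -0.47 to 0.10 for S100a1, -1.73 to 2.43 for S100a6, -3.85 to 4.42 for S100a8 and -2.97 to 5.81 for S100a9. GMP against CMP ran, in G4/G5 mice, from -1.72 to 2.44 for S100a6, -0.74 to 7.53 for S100a8 and -0.83 to 7.95 for S100a9, and, in G0 mice, from -0.30 to 0.27 for S100a1, -0.18 to 0.90 for S100a4, -0.51 to 0.52 for S100a6 and -0.21 to 0.044 for S100a13. Without G4/G5 CMP pool 2 the turned values of S100a8 in response (-3.85, adjusted p = 0.0486) and of S100a6 in G4/G5 mice (-1.72, adjusted p = 0.0331) passed. Differences near 0 turned too: S100a10 averaged read -0.0071 with quantile normalization and -0.022 with median centring, S100a1 in G0 mice 0.059 and 0.018, and S100a6 in G0 mice -0.012 with a pseudocount of 1. The cause of these changes was not tested.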
